A study of Mus musculus with 4 samples.

Results

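Arg1 Mmp12 Gpnmb macrophages were selected on measured transcript counts, as the CD45+ cells of EO771 mammary tumors in which the transcripts of *Arg1*, *Mmp12* and *Gpnmb* together reached 3 unique molecular identifiers (UMIs, each standing for 1 counted mRNA molecule) and which stayed under limits set on genes of other leukocytes. Per 10000 UMIs of the cell, *Ly6c2* had to be under 10, the complement genes *C1qa*, *C1qb* and *C1qc* together under 20, the MHC class II gene *H2-Ab1* under 20, and *S100a8* with *S100a9* under 300. A cell with any UMI of *Cd3d*, *Cd3e* or *Cd3g*, or with 20000 UMIs or more, was left out. Of the 28429 cells that the authors kept, 185 met this rule and are called the members here. They made up 0.651% of the kept cells (95% Wilson interval, 0.564% to 0.751%).

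The cells came from 4 tumors of female mice, 2 of *Csf1r* fl/fl mice and 2 of Lyve1Cre *Csf1r* fl/fl mice, each grown from orthotopically implanted EO771 cells, a mouse mammary carcinoma line, and harvested at 1.5 cm3. All 4 mice carried the floxed *Csf1r* allele, which encodes the receptor for colony-stimulating factor 1, and the Lyve1Cre mice also carried Cre under control of *Lyve1*, a hyaluronan receptor gene of some tissue macrophages and of lymphatic endothelium, while the controls had no Cre. Viable CD45+ leukocytes were sorted, and each of 2 Chromium runs held a pool of 1 tumor per genotype that hashtag antibodies told apart, so tumor 1 and tumor 2 of either genotype are those of run 1 and run 2. With n = 2 tumors per genotype, every test used values per tumor and not single cells. The p-values between genotypes measure the spread between these 4 tumors. Those between groups of cells, with the tumor as a block, measure how the difference within a tumor varies from tumor to tumor. Wherever 4 values are listed, they are for *Csf1r* fl/fl tumor 1, *Csf1r* fl/fl tumor 2, Lyve1Cre *Csf1r* fl/fl tumor 1 and Lyve1Cre *Csf1r* fl/fl tumor 2, in this order, and a level is the UMIs of a gene per 10000 UMIs summed over the cells of a population in that tumor.

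The members numbered 69, 55, 40 and 21 among 8624, 7786, 7248 and 4771 kept cells of the 4 tumors. Their summed depth was 342523, 283530, 165178 and 85469 UMIs, so the second Lyve1Cre *Csf1r* fl/fl tumor gives the least precise levels. A member held between 887 and 18972 UMIs, with a median of 4131. Mitochondrial genes took 1.48%, 1.82%, 1.68% and 1.60% of the UMIs of the members. None of the members had tied hashtags, and no barcode was shared between members of the 2 runs. Among all kept cells, 11 had tied hashtags and 60 barcodes occurred in both runs.

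Macrophages in tumors arise from blood monocytes and from resident cells of the tissue, and they take up dead cells, remodel matrix and release factors that act on vessels and other leukocytes. *Arg1* encodes arginase 1, which hydrolyses arginine to ornithine and urea and so competes with nitric oxide synthase for its substrate. *Mmp12* encodes macrophage elastase, a secreted metalloprotease, and *Gpnmb* encodes a membrane glycoprotein of lysosomes and the cell surface that is a known target of the MiT/TFE transcription factors. Of the markers named with these cells, *Hmox1* encodes the heme oxygenase that opens the heme ring and frees iron, *Ctsk* encodes the collagen-cleaving protease of osteoclasts, and *Inhba* encodes the subunit of activin A.

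In mm10 with the GENCODE vM21 annotation, *Arg1* lies at chr10:24915221-24927484 on the minus strand, *Mmp12* at chr9:7344381-7369499 on the plus strand and *Gpnmb* at chr6:49036546-49070929 on the plus strand. The 3 genes thus lie on different chromosomes. Promoter windows of 300 bases, from 250 bases before to 50 bases after a start site, were taken from RefSeq on GRCm38.p6, which holds 2 windows for *Mmp12* and 1 for *Gpnmb*, *Ctsk* and *Inhba* each, and *Arg1* and *Hmox1* are named only. They were searched on both strands for the AP-1 site TGANTCA, the antioxidant response element core TGACNNNGC, the E-box CACGTG and the hypoxia site ACGTG. Only the AP-1 site occurred, once in the second *Mmp12* window and once in the *Gpnmb* window, and these are shown because *Mmp12* and *Gpnmb* are the rule genes with such a match, with the AP-1 site in capitals. The *Mmp12* window is chr9:7347124-7347423, plus strand, and the *Gpnmb* window is chr6:49036268-49036567, plus strand.
Mmp12: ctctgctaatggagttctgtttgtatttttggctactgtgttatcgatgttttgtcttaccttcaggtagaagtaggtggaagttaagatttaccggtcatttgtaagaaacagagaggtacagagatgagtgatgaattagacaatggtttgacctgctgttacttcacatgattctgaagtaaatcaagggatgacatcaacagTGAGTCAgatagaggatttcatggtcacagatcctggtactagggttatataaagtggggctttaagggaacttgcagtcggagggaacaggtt
Gpnmb: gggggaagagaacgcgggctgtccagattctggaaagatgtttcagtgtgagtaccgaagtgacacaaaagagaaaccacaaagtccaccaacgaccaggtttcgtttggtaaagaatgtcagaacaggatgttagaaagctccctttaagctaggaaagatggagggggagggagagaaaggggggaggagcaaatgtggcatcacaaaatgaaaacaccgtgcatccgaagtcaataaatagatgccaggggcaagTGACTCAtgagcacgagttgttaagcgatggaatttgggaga
The site begins 44 bases before the start site in *Mmp12* and 8 bases after it in *Gpnmb*. Of 32851 promoter windows of this length, 7.81% held TGANTCA, 12.4% TGACNNNGC, 7.15% CACGTG and 19.6% ACGTG. A match in such a window is a description of the letters and does not show binding.

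How the 3 genes of the rule were spread over the members is a description, since their UMIs chose the cells. *Mmp12* had a UMI in 107 of the members (57.8%), *Gpnmb* in 89 (48.1%) and *Arg1* in 66 (35.7%), and 10 members (5.41%) held all 3. *Mmp12* was the only one of the 3 genes in 49 members, *Gpnmb* in 35 and *Arg1* in 34. The most common pair was *Mmp12* with *Gpnmb*, in 45 members, against 23 with *Arg1* and *Mmp12* and 19 with *Arg1* and *Gpnmb*. The members held 31.6% of all *Arg1* UMIs of the kept cells, 18.6% of those of *Mmp12* and 17.0% of those of *Gpnmb*. One member held 270 of the 1630 *Mmp12* UMIs, or 16.6%.

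The levels of the rule genes are given as a description, since they chose the cells. *Arg1* stood at 9.14, 8.54, 6.05 and 2.46 UMIs per 10000. It was lowest in the second Lyve1Cre *Csf1r* fl/fl tumor, where 4 of 21 members held a UMI of it. *Mmp12* stood at 12.2, 28.8, 19.1 and 9.24 and was highest in the second *Csf1r* fl/fl tumor. *Gpnmb* stood at 4.55, 2.05, 3.51 and 6.55, with its lowest level in the tumor where *Mmp12* was highest.

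The markers that the rule did not read were described in the same way, with no test. *Hmox1* was at 20.03, 31.2, 27.6 and 32.9 UMIs per 10000 in the members, at 3.37 to 7.52 in C1q macrophages and at 1.58 to 3.28 in Ly6c2 monocytes, so the members were above both in each tumor. *Inhba* was at 3.74, 4.20, 7.57 and 10.5 in the members, with both Lyve1Cre *Csf1r* fl/fl tumors above both controls. *Ctsk* ran the other way, at 0.788, 0.846, 0.182 and 0.117, but only 55 UMIs of *Ctsk* were counted in all members and 14 of them came from 1 cell. Neither order was tested, and with n = 2 tumors per genotype neither can be told from chance. With each cell thinned to 2000 UMIs, which left out 32 members, 73.2% of members held a UMI of *Hmox1*, 28.8% of *Inhba* and 8.50% of *Ctsk* (78.4%, 42.7% and 11.4% unthinned). T cells, which had at least 2 UMIs of the *Cd3* genes and at most 1 of *Lyz2*, serve as a background of free RNA. Their median was 4106.5 UMIs, and the thinned shares were 3.49%, 0.944% and 0.215% (6.83%, 1.64% and 0.486% unthinned). The *Lyz2* limit left out cells with more myeloid RNA, so these shares may be too low for that background. The *Ctsk* marker was thus seen in a minority of the members.

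**Figure D1:**
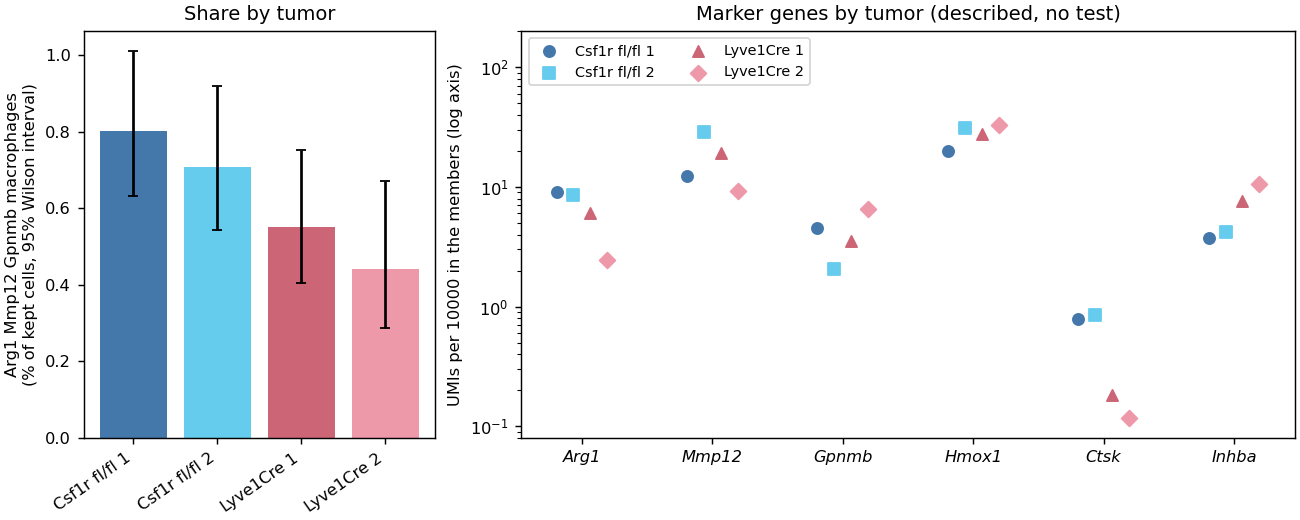
Left, share of kept cells that were Arg1 Mmp12 Gpnmb macrophages in each tumor, as bars from 0 with 95% Wilson intervals, falling from 0.800% to 0.440%. Right, level of each marker gene in the members in UMIs per 10000 on a log axis, 1 point per tumor, where *Ctsk* is the lowest of the 6 and *Inhba* is higher in both Lyve1Cre *Csf1r* fl/fl tumors. No test between genotypes was made for these genes.

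The macrophage label was checked against genes that the rule did not read. *Csf1r* was present at 1.61, 2.19, 1.76 and 1.17 UMIs per 10000, and *Cd68*, a lysosomal glycoprotein of macrophages, at 7.44, 4.94, 7.20 and 6.79. The 12 genes of the macrophage identity list summed to between 71.9 and 80.6 UMIs per 10000 in the members, to between 51.9 and 57.4 in C1q macrophages, to between 117 and 134 in Ly6c2 monocytes, to between 80.4 and 89.4 in the cells high in *S100a8* and *S100a9* and to between 3.33 and 6.52 in T cells. The members thus lay above T cells and C1q macrophages and below the monocytes. They were just below or within the range of the cells high in *S100a8* and *S100a9*, so a high sum of the list does not mark macrophages among myeloid cells. *Lyz2* is on this list and also chose the monocytes (20 or more per 10000) and the T cells (at most 1 UMI). The places of these populations are thus not independent of their own rules. In the monocytes and the cells high in *S100a8* and *S100a9*, *Csf1r* was at 1.40 to 2.53 and 0.445 to 1.01. *Adgre1*, which encodes F4/80, was low at 0.701, 0.529, 0.424 and 0.117, and *Lyve1*, *Cd163* and *Timd4*, markers of resident macrophages, had no UMI in any of the 185 members, which allows up to 1.62% of cells with a UMI and up to 0.0342 UMIs per 10000. C1q macrophages were below that limit for these genes too, at 0.00520, 0.0234 and 0.0286 UMIs per 10000, so the zeros do not set the members apart from them. Of the members, 11 had no UMI of any of 6 macrophage genes, *Csf1r*, *Cd68* and *Lyz2* among them, and since monocytes also express these genes, a UMI of them does not show that a cell is a macrophage.

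One of these 11 cells, in the second *Csf1r* fl/fl tumor, carried 935 UMIs of tumor and stroma genes, 4 UMIs of *Gpnmb* and none of the 6 macrophage genes. The other members had at most 3 UMIs of that list. This cell raised the tumor and stroma list to 33.4 UMIs per 10000 in its tumor, against 0.380 to 0.726 in the others, and it held all UMIs of *Mmp2* and *Mmp3* and 95.8% of those of *Gas6* among the members. Of the epithelial genes on that list, *Krt8*, *Krt18*, *Krt7* and *Epcam* were at 0 in every tumor, while *Cdh1* was not. *Krt18* and *Krt7* were also at 0 in C1q macrophages and *Krt18* in Ly6c2 monocytes. These zeros thus do not show that no tumor cell is among the members.

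Genes of other leukocytes were present at low levels. The 11 neutrophil genes summed to 11.01, 5.29, 10.2 and 11.9 UMIs per 10000 in the members, against 155 to 172 in the cells with at least 300 UMIs per 10000 of *S100a8* and *S100a9*, with *Camp* and *Ngp* at 0. In C1q macrophages the same genes summed to 5.73, 4.23, 7.18 and 1.98 and in Ly6c2 monocytes to 6.16, 6.43, 6.22 and 5.04. The 10 T and NK genes summed to 8.64, 2.29, 4.36 and 0.702 (T cells, 40.4 to 52.8), against 0.763 to 8.43 in C1q macrophages and 0.297 to 0.495 in Ly6c2 monocytes. The members were above the monocytes in each tumor. The monocytes were chosen without UMIs of *Nkg7*, a gene of this list, so this direction is not independent of their rule. The part of this list in the monocyte comparison was not tested. Of the other lists, the 9 dendritic cell genes summed to between 0 and 1.48 with *Zbtb46* and *Clec9a* at 0, the 7 B and plasma cell genes to between 0.0876 and 3.39, and 5 of the 6 mast cell and basophil genes were at 0. Scrublet called 38 of the members doublets, 30 of 109 in run 1 and 8 of 76 in run 2, where it called 23.5% and 10.8% of all kept cells doublets.

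The limits of the rule decided how many cells were counted. Of 926 kept cells with at least 3 UMIs of the rule genes, 741 were not members, and 394 of these were past 1 limit only. They were past the limit on *Ly6c2* in 279 cells, on *Cd3* genes in 277, on *H2-Ab1* in 257, on C1q genes in 212, on *S100a8* with *S100a9* in 104 and on the total UMIs in 78. Just outside the rule lay 58 cells with 2 UMIs of the rule genes and all other limits met, and just inside lay 31 members with 3 UMIs. *Hmox1* was at 15.4 UMIs per 10000 in the former and at 25.1 in the latter, *Spp1* at 5.30 and 14.7, and *Csf1r* at 1.12 and 1.67. In the 66 members with 10 or more UMIs of the rule genes these levels were 32.4, 20.2 and 1.84, and in the 88 members with 4 to 9 they were 19.9, 14.2 and 1.74, so *Hmox1* and *Spp1* did not rise steadily with the UMIs of the rule genes.

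The members made up 0.800%, 0.706%, 0.552% and 0.440% of the kept cells of the 4 tumors, with Wilson intervals of 0.633% to 1.01%, 0.543% to 0.918%, 0.406% to 0.751% and 0.288% to 0.672%, which cover counting error only. The share was 0.753% ± 0.0663 (SD, n = 2) in *Csf1r* fl/fl tumors and 0.496% ± 0.0790 in Lyve1Cre *Csf1r* fl/fl tumors, a log2 ratio of -0.60. It was lower with Cre in both runs, by log2 ratios of -0.54 and -0.68, and the groups did not overlap, yet the exact permutation test (two-sided) gave p = 0.333, the smallest p that 2 tumors against 2 allow. The authors had removed clusters that they found specific to the second Lyve1Cre *Csf1r* fl/fl tumor. The kept cells of that tumor are thus not all its sorted leukocytes, and the effect on its share was not tested. Out of all cells that met 1 of the 3 rules for mononuclear phagocytes, the members made up 5.78%, 5.83%, 6.79% and 4.63%, a log2 ratio of -0.02 with opposite signs in the runs (0.23 and -0.33). The lower share in the Lyve1Cre *Csf1r* fl/fl tumors was thus seen out of all kept cells and not out of the mononuclear phagocytes, beside C1q macrophages at 3.70%, 2.09%, 1.12% and 0.901% and Ly6c2 monocytes at 9.35%, 9.31%, 6.46% and 8.17%.

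Within the members, the targeted gene *Csf1r* was at 1.61, 2.19, 1.76 and 1.17 UMIs per 10000, and the genotypes overlapped. The log2 fold change of Lyve1Cre *Csf1r* fl/fl against *Csf1r* fl/fl was -0.29 ± 0.38 (SE). Since 3' counts are read at the end of the transcript and the deleted exons were not given in the sources used here, this level does not check the deletion. Of 3207 genes tested across the 4 tumors with edgeR's quasi-likelihood test and Benjamini-Hochberg adjustment, 0 passed an adjusted p of 0.05, or 0% in either direction, 139 had an unadjusted p under that value, and DESeq2 called 1 gene, *Fn1*.

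The 5 genes with the lowest p in the genotype comparison did not pass, and a single cell held a large share of the UMIs of each. *Fn1*, the fibronectin gene, was at 8.32, 3.74, 0.969 and 0.468 UMIs per 10000, below both controls in both Lyve1Cre *Csf1r* fl/fl tumors (log2 fold change -2.95 ± 0.50, edgeR adjusted p = 0.10), with 30.9% of its UMIs in 1 cell. *Saa3*, an acute phase protein gene, was at 2.22, 13.1, 0.666 and 0, and 1 cell held 75.6% of its UMIs. *Cx3cr1*, the fractalkine receptor gene, was at 0.876, 3.03, 0.182 and 0, with 49.6% in 1 cell. *Lpl*, the lipoprotein lipase gene, was at 1.49, 10.1, 0.726 and 0, with 41.1% in 1 cell. *Adh5* was at 0.526, 0.212, 0.363 and 14.98, high in 1 tumor through 1 cell with 80.4% of its UMIs, and its log2 fold change of 4.3 ± 1.02 turned to -0.04 without that tumor. No gene of the 17 gene lists passed, and their median log2 fold changes lay between -0.24 and 0.47, beside 0.00 over all genes tested. The count was 71 without *Csf1r* fl/fl tumor 1, 45 without Lyve1Cre *Csf1r* fl/fl tumor 1, 1 (*Areg*) without Lyve1Cre *Csf1r* fl/fl tumor 2, 0 without *Csf1r* fl/fl tumor 2, and 5, the genes just named, with library totals in place of TMM factors. Leaving out a tumor leaves 1 tumor in its genotype, so the spread in those fits comes from the other genotype alone and the lone tumor is assumed to vary like it.

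**Figure D2:**
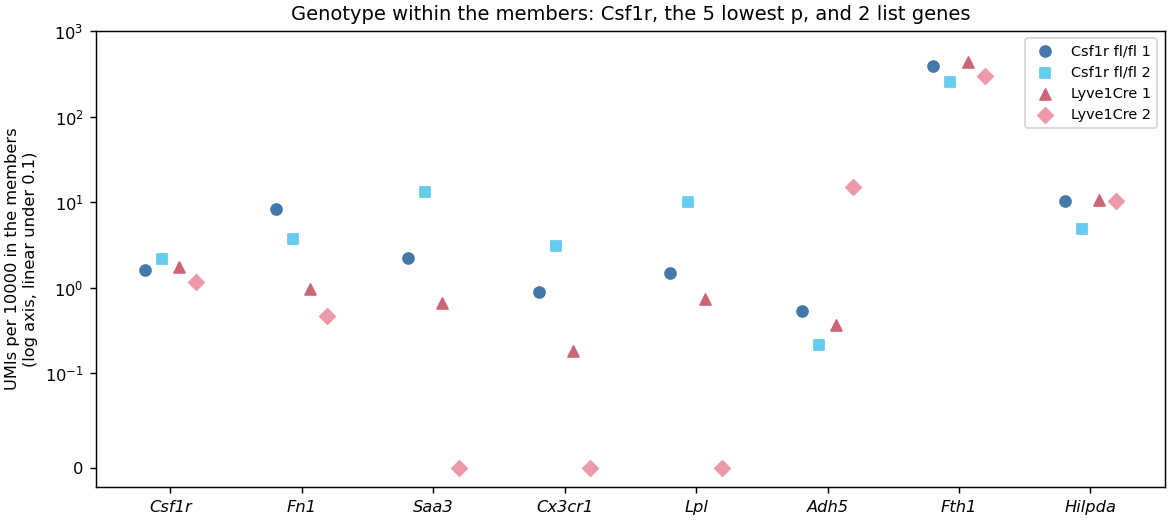
Level in the members of *Csf1r*, of the 5 genes with the lowest p between genotypes and of *Fth1* and *Hilpda*, in UMIs per 10000 on a log axis that is linear under 0.1, 1 point per tumor. *Csf1r* overlaps between genotypes, and *Adh5* is high in Lyve1Cre *Csf1r* fl/fl tumor 2 alone.

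The members were next set against 2 other populations of mononuclear phagocytes in the same tumors. C1q macrophages were the 606 kept cells with at least 20 UMIs per 10000 of the C1q genes, *Ly6c2* under 10, and the same limits on *S100a8* with *S100a9*, *Cd3* genes and total UMIs. Ly6c2 monocytes were the 2389 kept cells with *Ly6c2* at 10 or more and *Lyz2* at 20 or more per 10000, without UMIs of *Siglech* or *Nkg7*, and with the other limits of the members. UMIs were summed per tumor and population, and each comparison held the tumor as a block. The 19 genes that a limit or a marker list of the members used were left out of the tests, but the tested genes were counted in the same cells as those that chose them. No limit was set on the rule genes in the comparators, where 89 C1q macrophages (14.7%) and 70 Ly6c2 monocytes (2.93%) held at least 3 of these UMIs. The members were admitted on these UMIs, so rises of genes that vary with the rule genes may not be independent of the rule.

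Against C1q macrophages, 693 of 4966 genes were higher in the members (14.0%) and 520 lower (10.5%) at an adjusted p of 0.05. With library totals as the scale, 586 were higher and 752 lower, and the median log2 fold change over all genes moved from -0.02 to -0.14. The calls for Arg1 Mmp12 Gpnmb macrophages against C1q macrophages, 1213 in all (24.4%), fell to 650 without *Csf1r* fl/fl tumor 1. Against Ly6c2 monocytes, 927 of 8456 genes were higher (11.0%) and 1012 lower (12.0%), with a median of -0.02. With library totals these were 1008 higher and 889 lower with a median of 0.04, so the balance turned from more lower to more higher. Ribosomal protein genes took 14.9%, 13.4%, 12.3% and 12.4% of the UMIs of the members, below C1q macrophages (19.5%, 16.4%, 17.8% and 15.5%) and Ly6c2 monocytes (17.2%, 14.9%, 18.3% and 16.3%) in each tumor. The part of this shift in the results was not tested.

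Genes of hypoxia and glycolysis stood out by their counts. Against C1q macrophages, 23 of 23 tested genes of this list were higher, with a median log2 fold change of 1.60, beside 14.0% of all genes. *Hilpda*, which encodes a lipid droplet protein induced in low oxygen, was at 10.2, 4.87, 10.7 and 10.4 UMIs per 10000 in the members and at 1.65, 0.679, 1.06 and 2.60 in C1q macrophages (log2 fold change 2.82 ± 0.18, edgeR adjusted p = 2.9e-09). *Ero1l*, an oxidase of the endoplasmic reticulum, was at 3.88, 6.52, 6.84 and 4.68 against 0.628, 0.687, 0.598 and 0.954 (3.05 ± 0.20). For both genes the lowest tumor of the members was above the highest of the C1q macrophages. *Vegfa*, the main growth factor of blood vessels, was at 1.05, 2.15, 2.12 and 1.17 against 0.135, 0.166, 0.326 and 0.458 (3.02 ± 0.27), also without overlap. *Ndrg1* and *Bnip3*, targets of hypoxia-inducible factor, were higher by 2.50 ± 0.19 and 2.37 ± 0.19, and *Egln3*, the oxygen-sensing prolyl hydroxylase, by 3.08 ± 0.30. Genes of glucose use were higher as well. The glucose transporter gene *Slc2a1* was higher by 1.95 ± 0.20, the glycolytic enzyme gene *Pgk1* by 1.70 ± 0.17 and the lactate dehydrogenase gene *Ldha* by 1.05 ± 0.14.

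Against Ly6c2 monocytes, 24 of 24 tested genes of the hypoxia and glycolysis list were higher, with a median of 1.54, beside 11.0% of all genes. *Vegfa* was at 0.0661 to 0.0868 UMIs per 10000 in the monocytes (log2 fold change 4.3 ± 0.26), *Hilpda* at 0.545 to 1.26 (3.25 ± 0.17), *Ero1l* at 0.600 to 0.669 (3.05 ± 0.18) and *Ndrg1* at 0.451 to 0.581 (2.98 ± 0.18). The list summed to 157, 127, 147 and 134 UMIs per 10000 in the members, to 52.3 to 67.1 in C1q macrophages and to 53.7 to 56.7 in the monocytes. It was also above that of the cells high in *S100a8* and *S100a9*, at 73.1 to 87.5, and of T cells, at 44.4 to 52.7. Within the members this sum was 151 in cells with 3 UMIs of the rule genes, 130 in those with 4 to 9 and 153 in those with 10 or more. It was 95.6 in the cells just outside the rule.

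**Figure D3:**
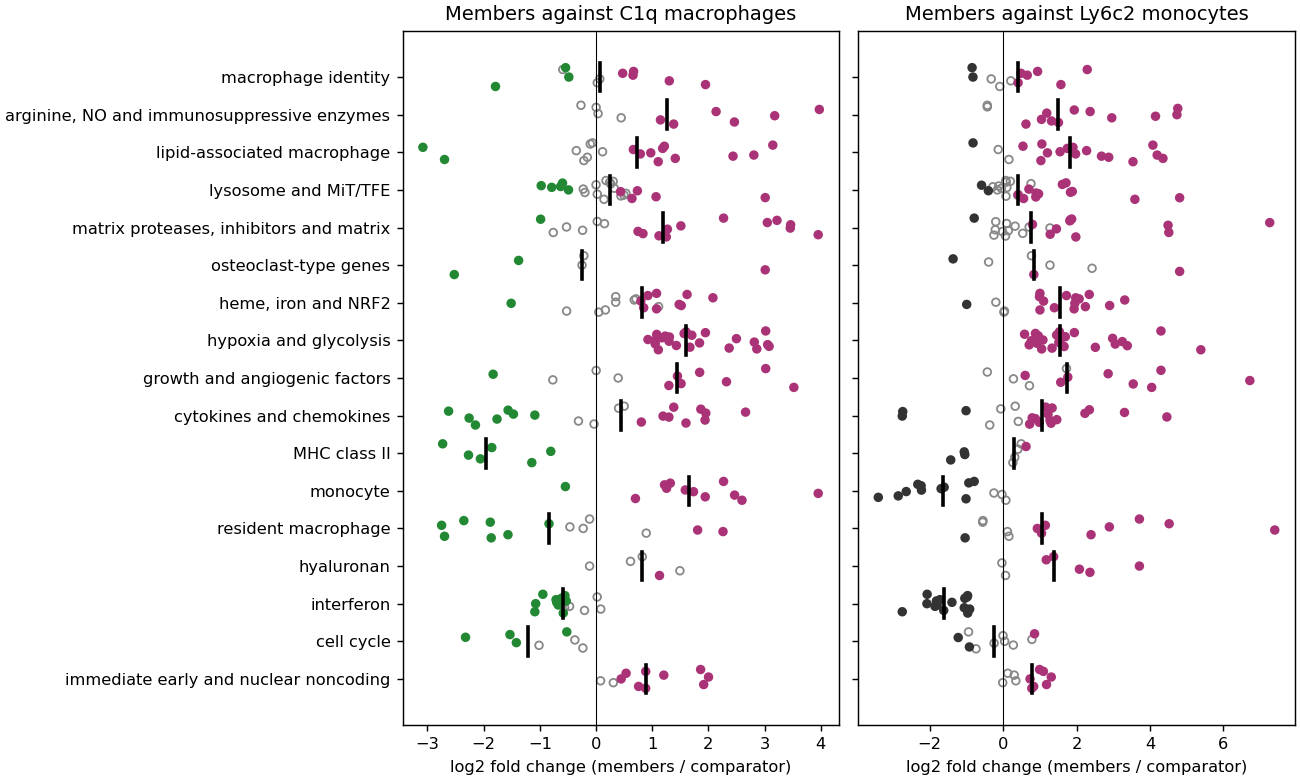
Log2 fold change of each tested gene by list, for the members against C1q macrophages (left) and against Ly6c2 monocytes (right). Filled points passed an adjusted p of 0.05, open points did not, and black bars are medians over all tested genes of a list. Points of *Birc5* (both panels) and *Cxcl14* (right), which had no UMI in 1 of the populations compared, are not drawn. All hypoxia and glycolysis points lie right of 0 in both panels, and all filled interferon points lie left of it.

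Genes of heme, iron and the NRF2 antioxidant response were higher in part. Against C1q macrophages, 9 of 18 tested genes were higher and 1 was lower (median 0.82), beside 14.0% and 10.5% of all genes. The comparison with Ly6c2 monocytes had 14 of 18 higher and 1 lower (median 1.56), beside 11.0% and 12.0%. *Fth1*, the ferritin heavy chain gene, was at 394, 254, 437 and 301 UMIs per 10000 in the members, at 216, 139, 182 and 172 in C1q macrophages and at 127, 63.9, 111 and 59.8 in the monocytes. The 3 populations did not overlap (log2 fold changes 1.08 ± 0.08 and 1.93 ± 0.12). The ferritin light chain gene *Ftl1* was higher by 0.85 ± 0.11 and 1.40 ± 0.13. *Slc7a11*, the cystine importer, was at 3.12, 3.53, 5.87 and 5.50 against 0.919 to 1.36 and 0.759 to 1.21, higher by 2.08 ± 0.18 and 1.98 ± 0.18. *Gclm*, a subunit of the enzyme that starts glutathione synthesis, was higher by 1.52 ± 0.23 and 2.90 ± 0.26. The iron exporter gene *Slc40a1* and the heme transporter gene *Slc48a1* were higher than in the monocytes (3.31 ± 0.32 and 2.07 ± 0.30) and had log2 fold changes of 0.68 ± 0.30 and 0.71 ± 0.29 against C1q macrophages, which did not pass. *Hpgds*, a prostaglandin synthase gene, was lower than in C1q macrophages (-1.51 ± 0.30), and the glutathione reductase gene *Gsr* was lower than in the monocytes (-0.99 ± 0.18).

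Enzymes of arginine use and immune suppression other than *Arg1* were higher where they differed. Against C1q macrophages, 6 of 10 tested genes were higher and 0 lower (median 1.26), beside 14.0% and 10.5% of all genes. Relative to Ly6c2 monocytes 11 of 13 were higher and 0 lower (median 1.51), beside 11.0% and 12.0%. *Arg2*, the mitochondrial arginase gene, was at 0.730, 0.600, 1.21 and 1.40 UMIs per 10000, against 0.141 to 0.218 in C1q macrophages and 0.250 to 0.404 in the monocytes (log2 fold changes 2.46 ± 0.29 and 1.51 ± 0.26). *Nos2*, the inducible nitric oxide synthase, was at 0.321, 1.69, 1.70 and 0.468 against 0.00828 to 0.573 and 0.0144 to 0.0899 (3.18 ± 0.56 and 4.15 ± 0.36). Both genotypes held a high and a low tumor for *Nos2*, the members overlapped C1q macrophages, and that call was lost by DESeq2. *Slc7a2*, an arginine transporter gene, was higher by 3.97 ± 0.78 and 4.76 ± 0.71 from 14 members with a UMI. *Ptgs2*, the inducible cyclooxygenase, was at 9.96, 2.43, 8.17 and 5.50 and higher by 2.14 ± 0.29 and 1.94 ± 0.19, and *Cd274*, which encodes PD-L1, was at 3.74, 2.89, 3.69 and 4.91 and higher by 1.15 ± 0.18 and 1.32 ± 0.18. *Acod1*, which makes itaconate, was higher than in C1q macrophages by 1.38 ± 0.28, a call that was lost in the members with *S100a8* and *S100a9* under 100 per 10000. The adenosine-forming ectoenzyme genes *Entpd1* and *Nt5e* were higher than in the monocytes, by 1.05 ± 0.22 and 4.73 ± 0.91. The list summed to between 14.8 and 25.4 UMIs per 10000 in the members, 10.2 and 12.5 in C1q macrophages, 9.81 and 13.5 in the monocytes and 39.7 and 95.5 in the cells high in *S100a8* and *S100a9*. The neutrophil list, whose sum includes *Mmp8*, was higher in the members than in C1q macrophages in each tumor. Its part in these results was not tested.

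The lipid-associated macrophage genes divided. Against C1q macrophages, 10 of 18 tested genes were higher and 2 lower (median 0.73), beside 14.0% and 10.5% of all genes. With Ly6c2 monocytes as comparator 15 of 18 were higher and 1 lower (median 1.83), beside 11.0% and 12.0%. *Spp1*, which encodes osteopontin, was at 23.1, 12.4, 11.3 and 19.2 UMIs per 10000 in the members, at 1.76, 1.34, 0.816 and 7.18 in C1q macrophages and at 1.003, 1.06, 0.947 and 0.648 in the monocytes. The members were above both in every tumor (log2 fold changes 3.15 ± 0.27 and 4.08 ± 0.17). *Cd9*, a tetraspanin gene, was at 4.35, 4.27, 4.42 and 6.55 and higher by 2.44 ± 0.20 and 2.68 ± 0.19, and the fatty acid binding protein genes *Fabp4* and *Fabp5* were higher by 2.81 ± 0.31 and 0.79 ± 0.20 than in C1q macrophages and by 4.20 ± 0.24 and 1.97 ± 0.14 than in the monocytes. *Plin2*, a coat protein of lipid droplets, was higher by 1.19 ± 0.14 and 1.75 ± 0.16, and *Lgals3*, the galectin 3 gene, by 0.97 ± 0.11 and 1.21 ± 0.13. *Apoe* and *Pltp*, which encode proteins that carry lipid in lipoproteins, were lower than in C1q macrophages (-2.70 ± 0.25 and -3.08 ± 0.33). *Apoe* was at 1.05, 1.69, 1.70 and 0.468 against 11.3, 8.52, 6.07 and 11.3 there. These populations were parted on C1q genes, so the direction of *Apoe* and *Pltp* may not be independent of the rule. The same holds for the rises, since the members were admitted on *Arg1*, *Mmp12* and *Gpnmb*. *Fabp4* and *Cd63* were lower in members led by *Arg1* than in those led by *Gpnmb*, as given below. *Trem2*, the lipid receptor used to name such macrophages, did not pass against C1q macrophages (-0.10 ± 0.33) and was higher than in the monocytes (1.06 ± 0.32). Without *Csf1r* fl/fl tumor 1, the calls of *Fabp5* against C1q macrophages (0.46) and of *Trem2* against the monocytes (0.40) were lost.

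**Figure D4:**
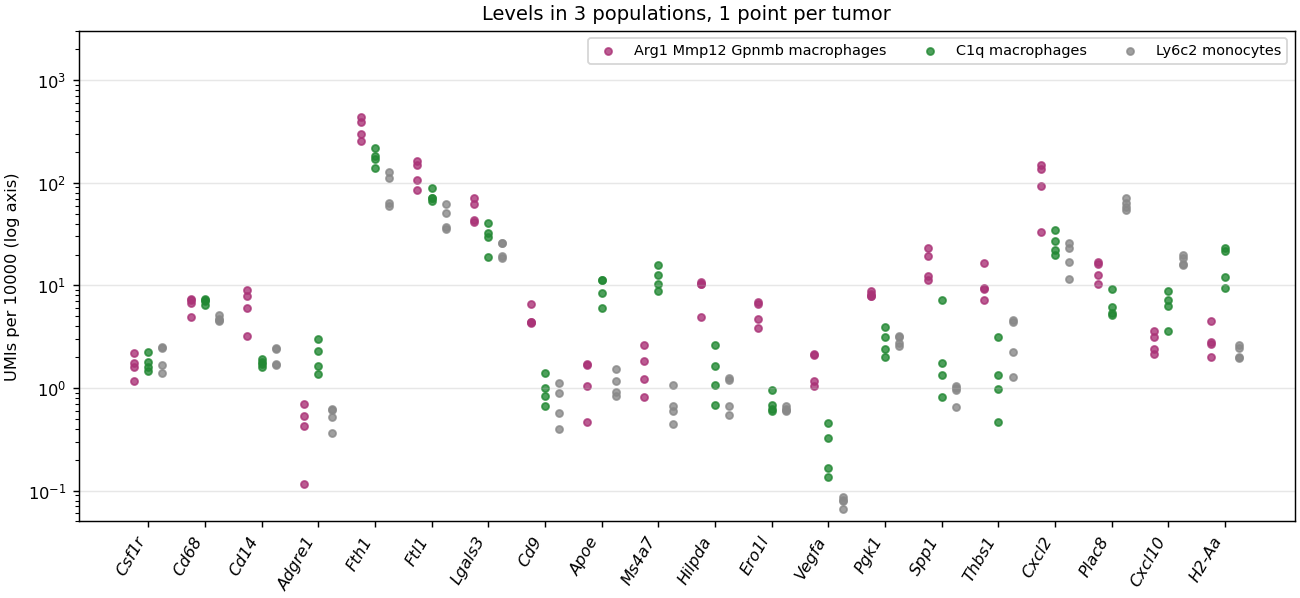
Levels of genes of the main groups in the members, C1q macrophages and Ly6c2 monocytes, in UMIs per 10000 on a log axis, 1 point per tumor. The members are highest for *Fth1*, *Spp1*, *Hilpda*, *Ero1l* and *Vegfa*, C1q macrophages for *Apoe*, *Ms4a7* and *H2-Aa*, and the monocytes for *Plac8* and *Cxcl10*.

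Genes of the lysosome and its MiT/TFE regulators, the class to which *Gpnmb* belongs, differed in both directions. Against C1q macrophages, 5 of 23 tested genes were higher and 5 lower (median 0.24), and against Ly6c2 monocytes 12 of 25 were higher and 2 lower (median 0.41), beside 14.0% of all genes higher and 10.5% lower in the first comparison and 11.0% and 12.0% in the second. The 5 higher than in C1q macrophages became 3 in the members with *S100a8* and *S100a9* under 100 per 10000. *Atp6v0d2*, a subunit of the proton pump, was at 0.730, 0.212, 0.303 and 0.702 UMIs per 10000 and higher by 3.01 ± 0.52 and 4.81 ± 0.57. It did not reach the minimum count for the comparison with C1q macrophages in the members under that limit, without *Csf1r* fl/fl tumor 1 or without the tumor term, so that call was lost there. *Ctsl*, the cathepsin L gene, was higher by 0.74 ± 0.16 and 1.89 ± 0.18, while *Ctss*, *Lgmn* and *Grn* were lower than in C1q macrophages (-0.49 ± 0.12, -0.60 ± 0.14 and -0.79 ± 0.13). *Mitf* itself was higher than in the monocytes (1.71 ± 0.45), but not without *Csf1r* fl/fl tumor 2 (1.39). Of the osteoclast-type genes, the class to which *Ctsk* belongs, 1 of 5 was higher and 2 lower than in C1q macrophages (median -0.25), and 2 of 7 were higher and 1 lower than in the monocytes (median 0.84), a share of higher genes near that of all genes against C1q macrophages. The 1 higher gene was *Atp6v0d2*. *Acp5*, the tartrate-resistant acid phosphatase, was at 0.671, 0.600, 0.666 and 0.585 against 4.99, 3.22, 3.32 and 4.62 in C1q macrophages (-2.52 ± 0.20), without overlap, and *Oscar* and *Calcr* were at 0.

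Matrix genes were higher against C1q macrophages in 12 of 18 tested cases and lower in 1 (median 1.19), beside 14.0% and 10.5% of all genes. They were higher against Ly6c2 monocytes in 10 of 22 cases with 1 lower (median 0.76), beside 11.0% and 12.0%. *Thbs1*, which encodes thrombospondin 1, was at 7.27, 9.21, 9.50 and 16.5 UMIs per 10000, against 0.463, 1.35, 0.979 and 3.13 in C1q macrophages and 1.29, 4.61, 2.22 and 4.44 in the monocytes (log2 fold changes 3.22 ± 0.21 and 1.82 ± 0.16). Summed over all members, the levels did not overlap either population. Members in which *Gpnmb* or *Mmp12* had the most UMIs of the rule genes, set apart below, did overlap both. *Sdc1*, a heparan sulfate proteoglycan gene, was higher by 3.46 ± 0.51 and 4.49 ± 0.50. *Fn1* and *Vcan*, for fibronectin and the proteoglycan versican, were higher than in C1q macrophages (3.95 ± 0.46 and 2.27 ± 0.19), but *Vcan* was lower than in the monocytes (-0.78 ± 0.17) and *Fn1* did not pass there (-0.25 ± 0.23). The collagenase gene *Mmp13* was higher than in the monocytes by 4.51 ± 0.24. Its call against C1q macrophages (0.75 ± 0.24) was lost without *Csf1r* fl/fl tumor 1 (0.74), *Csf1r* fl/fl tumor 2 (0.37) or Lyve1Cre *Csf1r* fl/fl tumor 1 (0.75). The neutrophil collagenase gene *Mmp8*, which is also on the neutrophil list, was at 1.46, 2.36, 1.15 and 1.99 and higher by 3.46 ± 0.27 and 1.45 ± 0.21. The neutrophil list was higher in the members than in C1q macrophages in each tumor, but *Mmp8* is part of that sum. In *Csf1r* fl/fl tumor 2 *Mmp8* made up 2.36 of the 5.29 in the members, against 4.23 for the whole list in C1q macrophages. The sum is thus not separate from the *Mmp8* result, and the part of the other neutrophil genes was not tested. *Plaur* and *Adam8*, the urokinase receptor and a membrane protease, were higher than in C1q macrophages by 1.51 ± 0.17 and 1.25 ± 0.16. Of the hyaluronan genes, 1 of 5 tested was higher than in C1q macrophages, the hyaluronan receptor *Cd44* (1.12 ± 0.17), a share near the 14.0% of all genes, and 5 of 7 were higher than in the monocytes (all genes, 11.0%). In the cells high in *S100a8* and *S100a9*, the matrix list summed to between 40.1 and 61.0 UMIs per 10000 (members, 51.8 to 62.5) and the hyaluronan list to between 8.80 and 17.7 (members, 5.84 to 7.76).

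Growth and angiogenic factor genes were higher in 7 of 11 tested cases and lower in 1 (*Pdgfb*) against C1q macrophages (median 1.45), beside 14.0% and 10.5% of all genes. Set against Ly6c2 monocytes, 8 of 12 were higher and 0 lower (median 1.74), beside 11.0% and 12.0%. The 7 became 5 in members with macrophage UMIs and under 10 stroma UMIs, and 5 with *S100a8* and *S100a9* under 100 per 10000. The 8 became 7 under either filter. Next to *Vegfa*, the placental growth factor gene *Pgf* was at 0.963, 0.741, 1.21 and 0.585 UMIs per 10000 and higher by 1.84 ± 0.31 and 2.86 ± 0.30. *Gdf15*, a stress-induced factor, was higher by 1.51 ± 0.30 and 3.54 ± 0.27, and *Osm*, the oncostatin M gene, by 1.45 ± 0.24 and 0.60 ± 0.20. The *Osm* call against the monocytes was lost without *Csf1r* fl/fl tumor 1 (0.57), Lyve1Cre *Csf1r* fl/fl tumor 1 (0.32) or Lyve1Cre *Csf1r* fl/fl tumor 2 (0.51). *Areg*, an EGF receptor ligand, was at 0.321, 0.0705, 2.36 and 0, with UMIs in 7 members and 63.5% of them in 1 cell. The list summed to between 9.59 and 14.2 in the members, 5.77 and 8.32 in C1q macrophages, 5.50 and 6.98 in the monocytes and 11.4 and 23.6 in the cells high in *S100a8* and *S100a9*, which were above the members in each tumor. The neutrophil list, whose sum includes *Mmp8*, was higher in the members than in C1q macrophages, and its part here was not tested.

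Cytokine and chemokine genes differed in both directions. Against C1q macrophages, 9 of 20 tested cytokine and chemokine genes were higher and 7 lower (median 0.45), beside 14.0% and 10.5% of all genes. For Ly6c2 monocytes 15 of 22 were higher and 3 lower (median 1.07), beside 11.0% and 12.0%. In the members with *S100a8* and *S100a9* under 100 per 10000, the higher genes became 7 and 14. *Cxcl2*, a chemokine gene for neutrophils, was at 135, 33.0, 148 and 92.4 UMIs per 10000 in the members and at 19.7 to 34.4 in C1q macrophages and 11.5 to 25.7 in the monocytes (log2 fold changes 1.95 ± 0.20 and 2.23 ± 0.15). The second *Csf1r* fl/fl tumor was the lowest of the members and lay within the range of the C1q macrophages. *Cxcl3*, of the same class, was higher by 2.66 ± 0.22 and 3.31 ± 0.18, with 32.8% of its UMIs in 1 cell. *Il1rn*, the interleukin-1 receptor antagonist gene, was at 9.81, 6.84, 9.93 and 19.9 and higher by 1.38 ± 0.17 and 1.34 ± 0.16, while *Il1b* did not pass (0.40 ± 0.19 and -0.06 ± 0.16). The CC chemokine genes *Ccl3*, *Ccl4*, *Ccl6* and *Ccl9* were higher than in both comparators, *Ccl3* by 1.60 ± 0.37 and *Ccl6* by 1.94 ± 0.21 against C1q macrophages. The monocyte chemokine genes *Ccl7* and *Ccl12* and the T cell chemokine genes *Cxcl9* and *Cxcl10* were lower than in C1q macrophages (-1.76 ± 0.19, -2.15 ± 0.17, -2.62 ± 0.35 and -1.09 ± 0.23). *Ccl7* was higher than in the monocytes (1.46 ± 0.19), and *Cxcl9* and *Cxcl10* were lower there too (-2.73 ± 0.25 and -2.74 ± 0.17). The list summed to 288, 99.1, 287 and 221 in the members, to 147, 121, 126 and 119 in C1q macrophages, to 110, 99.98, 110 and 71.9 in the monocytes and to 544 to 860 in the cells high in *S100a8* and *S100a9*. In *Csf1r* fl/fl tumor 2 the members were thus below the C1q macrophages and level with the monocytes, and in the other tumors they were above both. The part of the neutrophil list, given above, was not tested.

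MHC class II genes were lower in the members than in C1q macrophages, and interferon genes were lower than in both comparators where they differed. Of the MHC class II genes other than *H2-Ab1*, which the rule limited, 6 of 6 tested were lower than in C1q macrophages (median -1.96), beside 10.5% of all genes. *H2-Aa* was at 1.99, 2.79, 4.48 and 2.69 UMIs per 10000 against 9.53, 12.0, 23.1 and 21.5 (-2.27 ± 0.15), without overlap, and the invariant chain gene *Cd74* was lower too (-1.14 ± 0.13). The members were limited on *H2-Ab1* and the C1q macrophages were not, so this direction is not independent of the rule. Against Ly6c2 monocytes, which had the same limit, 1 of 8 was higher, *H2-Eb1* (0.63 ± 0.19; 0.30 and not called without Lyve1Cre *Csf1r* fl/fl tumor 1), and 3 were lower (*H2-DMa*, *H2-DMb1* and *Ciita*), beside 11.0% of all genes higher and 12.0% lower, so the higher share was near that of all genes. Interferon-stimulated genes were lower in 10 of 15 cases against C1q macrophages with 0 higher (median -0.58), beside 10.5% of all genes lower and 14.0% higher. They were lower in 15 of 15 against the monocytes (median -1.61), beside 12.0% of all genes. *Isg15*, a ubiquitin-like modifier, was at 6.22, 5.82, 9.02 and 10.5 against 11.2 to 12.9 in C1q macrophages and 23.2 to 30.4 in the monocytes (-0.53 ± 0.15 and -1.81 ± 0.15), and *Ifit3* was lower than in the monocytes (-2.07 ± 0.21). The *Isg15* call against C1q macrophages was lost without *Csf1r* fl/fl tumor 1 (-0.44) or *Csf1r* fl/fl tumor 2 (-0.39).

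Genes that mark monocytes and resident macrophages lay between the comparators on average in the members. Of the monocyte genes, 11 of 12 tested were higher than in C1q macrophages and 1 lower (median 1.66), beside 14.0% and 10.5% of all genes. Compared with Ly6c2 monocytes 0 of 14 were higher and 11 lower (median -1.64), beside 11.0% and 12.0%. *Plac8*, a gene of inflammatory monocytes, was at 12.6, 10.2, 16.0 and 16.8 UMIs per 10000 in the members, at 6.19, 5.42, 9.14 and 5.11 in C1q macrophages and at 63.8, 54.9, 71.0 and 57.9 in the monocytes (1.22 ± 0.15 and -2.23 ± 0.14). *Ccr2*, the receptor that brings monocytes into tissue, lay between the comparators on average (0.70 ± 0.20 and -1.01 ± 0.18), and its call against C1q macrophages was lost without *Csf1r* fl/fl tumor 1 (0.45). The members and the monocytes were parted on *Ly6c2*, another monocyte gene, so this direction is not independent of the rule. Of the resident macrophage genes, 2 of 13 were higher and 7 lower than in C1q macrophages (median -0.84), the higher share near the 14.0% of all genes (lower, 10.5%). Against the monocytes 8 of 13 were higher and 1 lower (median 1.05), beside 11.0% and 12.0% of all genes. The members and C1q macrophages were parted on C1q genes, which the authors link to tissue-resident macrophages. The direction against C1q macrophages is thus not independent of the rule. *Ms4a7* was at 2.63, 1.23, 1.82 and 0.819 against 15.7, 12.7, 8.89 and 10.3 and 1.08, 0.666, 0.599 and 0.447 (-2.75 ± 0.20 and 1.15 ± 0.21), and *Mrc1*, the mannose receptor, was higher than in the monocytes by 2.89 ± 0.24. *Gas6* passed in both comparisons, but 95.8% of its UMIs were those of the member with tumor and stroma genes.

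Of the macrophage identity genes, 5 of 11 tested were higher and 3 lower than in C1q macrophages (median 0.07), beside 14.0% and 10.5% of all genes. Next to Ly6c2 monocytes 6 were higher and 2 lower (median 0.41), beside 11.0% and 12.0%. *Csf1r* did not pass in either comparison (0.07 ± 0.18 and -0.32 ± 0.19), and its sign against C1q macrophages turned with library totals (-0.05). *Cd14*, a receptor for bacterial lipopolysaccharide, was at 9.02, 3.24, 7.93 and 6.08 UMIs per 10000 and higher by 1.95 ± 0.21 and 1.58 ± 0.18. *Adgre1* was lower than in C1q macrophages (-1.79 ± 0.28), and the lineage factor gene *Spi1* was lower than in both (-0.54 ± 0.15 and -0.84 ± 0.16), the first not without *Csf1r* fl/fl tumor 1 (-0.49).

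Cell cycle genes were lower in 5 of 8 tested cases against C1q macrophages with 0 higher (median -1.22), beside 10.5% of all genes lower and 14.0% higher. Only 1 of 11 was higher (*Tubb5*) and 3 lower against Ly6c2 monocytes (median -0.24), where 11.0% of all genes were higher and 12.0% lower. *Birc5*, the survivin gene, had no UMI in the members and was at least 12.5-fold higher in C1q macrophages and at least 4.17-fold higher in the monocytes, taking 3 counts over the group as the floor. *Stmn1*, a tubulin-binding protein gene of dividing cells, was lower than in C1q macrophages (-2.32 ± 0.30). Immediate early and nuclear noncoding genes were higher in 9 of 11 cases against C1q macrophages (median 0.88) and in 7 of 11 against the monocytes (median 0.78), with 0 lower in both. The shares of all genes that were higher were 14.0% and 11.0%. *Egr1* was higher by 1.92 ± 0.18 than in C1q macrophages, and the nuclear RNA *Malat1* was at 321, 424, 424 and 530 UMIs per 10000 against 228, 263, 211 and 294 (0.88 ± 0.08). *Malat1* and the lower ribosomal share moved together with the members, and their part in the other results was not tested.

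All tested genes were also ranked, those of the lists included. The 10 genes with the largest rise against C1q macrophages, among those called and higher in every tumor, were *Mt2*, *Slc7a2*, *Fn1*, *Sdc1*, *Mmp8*, *Procr*, *F3*, *Thbs1*, *Spp1* and *Egln3*. *Mt2*, a metallothionein gene, was at 4.79, 5.93, 3.21 and 0.468 UMIs per 10000 against 0.144, 0.364, 0 and 0.0763 (4.74 ± 0.31), with 28.8% of its UMIs in 1 cell. *Procr* and *F3* encode the endothelial protein C receptor and tissue factor, both of blood clotting, and were higher by 3.35 ± 0.44 and 3.26 ± 0.64. The 10 largest falls were *Birc5*, *Fcrls*, *Clec4b1*, *Cadm1*, *Itga9*, *Ch25h*, *Slamf9*, *BC049352*, *Fcrl5* and *Siglece*. *Slamf9* was at 0.409, 0.0353, 0.0605 and 0 against 2.80, 2.24, 1.96 and 2.90 (-3.73 ± 0.36), and *Clec4b1*, a C-type lectin gene, fell as well (-4.45 ± 0.45). *Fcrls* had no UMI in the members and was at least 8.74-fold higher in C1q macrophages.

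Against Ly6c2 monocytes, the 10 largest rises were *Mt2*, *Pdpn*, *Slc6a8*, *Procr*, *Atp6v0d2*, *Slc7a2*, *Nt5e*, *Bhlhe41*, *Pf4* and *Mmp13*. *Pdpn*, which encodes podoplanin, was at 0.759, 1.87, 0.726 and 1.40 UMIs per 10000 against 0.0186, 0.0397, 0.0347 and 0.0192 (5.29 ± 0.36), and *Slc6a8*, the creatine transporter gene, was higher by 4.89 ± 0.58. The platelet factor 4 gene *Pf4* was at 7.04, 2.12, 5.21 and 0.702 against 0.0288 to 0.239 (4.52 ± 0.22). The 10 largest falls were *Birc5*, *Elane*, *Cd300lg*, *Nusap1*, *Arhgef37*, *Calhm6*, *Batf2*, *Dxo*, *Gramd3* and *Ppfia4*, of which the first 4 had no UMI in the members and were at least 4.17, 2.95, 2.18 and 1.99-fold higher in the monocytes. *Calhm6* was at 0.292, 0.106, 0.0605 and 0 against 1.65, 1.69, 1.77 and 1.57 (-3.50 ± 0.32).

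The members were then divided by the rule gene with the most UMIs. *Mmp12* led in 95 members, *Gpnmb* in 44 and *Arg1* in 42, and 4 were tied. Arg1-led and Gpnmb-led members were compared in the same tumors, with 15, 15, 8 and 4 cells against 17, 9, 9 and 9. Of 862 genes tested outside the 3 rule genes and the other genes left out, 2 were higher in Arg1-led members (0.232%) and 3 lower (0.348%), 5 in all (0.58%). The UMIs that put a cell in one of these groups are those that admitted it to the members (3 UMIs in 31 of the 185), so the groups come from the rule's own values, and the differences below describe cells admitted through one gene or the other and are not independent of that choice.

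*Thbs1* was at 20.5, 29.1, 28.8 and 30.9 UMIs per 10000 in Arg1-led members and at 2.56, 1.19, 1.78 and 8.77 in Gpnmb-led members (log2 fold change 3.13 ± 0.48, edgeR adjusted p = 0.0194). The groups did not overlap, and Mmp12-led members, at 2.04, 4.85, 7.15 and 15.9, lay below the Arg1-led cells in each tumor. *Hspa1b*, an inducible heat shock protein gene, was at 3.56, 5.62, 8.82 and 30.3 against 0.853, 0.794, 2.29 and 3.65 (2.31 ± 0.39), higher in each tumor. *Fabp4* ran the other way, at 0, 0, 0.339 and 0.606 against 4.55, 1.79, 6.61 and 7.30 (-5.07 ± 0.70, edgeR adjusted p = 0.0173). *Cd63*, a tetraspanin of late endosomes, was at 0.344, 1.36, 0.678 and 0 against 6.82, 7.74, 6.86 and 1.83 (-3.48 ± 0.50), and *Slamf7*, a leukocyte receptor gene, at 0.574, 0.511, 0 and 0 against 3.55, 4.37, 5.85 and 2.19 (-3.51 ± 0.63). *Ctsk*, described with no test, was at 0.344, 0.170, 0 and 0 in Arg1-led and at 2.27, 3.97, 0.508 and 0.365 in Gpnmb-led members. No gene of the hypoxia and glycolysis list passed of 21 tested (median 0.66), nor of the heme, iron and NRF2 list of 13 (median -1.30). The calls fell to 0 without *Csf1r* fl/fl tumor 1, without Lyve1Cre *Csf1r* fl/fl tumor 1 or without the tumor term, and were 8 without either of the other tumors and 21 by DESeq2. The direction of the 5 genes was kept in all 71 values over the alternatives run, and 19 of these did not pass. Slamf7 in Arg1-led against Gpnmb-led members was at -3.68 and not called without *Csf1r* fl/fl tumor 2, and Hspa1b in Arg1-led against Gpnmb-led members at 2.14 and not called without Lyve1Cre *Csf1r* fl/fl tumor 2. In members with macrophage UMIs and under 10 stroma UMIs 7 genes passed, among them *Thbs1*, *Hspa1b*, *Fabp4* and *Slamf7*, but not *Cd63*. The log2 fold change there of Cd63 in Arg1-led against Gpnmb-led members was -3.06 (edgeR adjusted p = 0.0644).

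**Figure D5:**
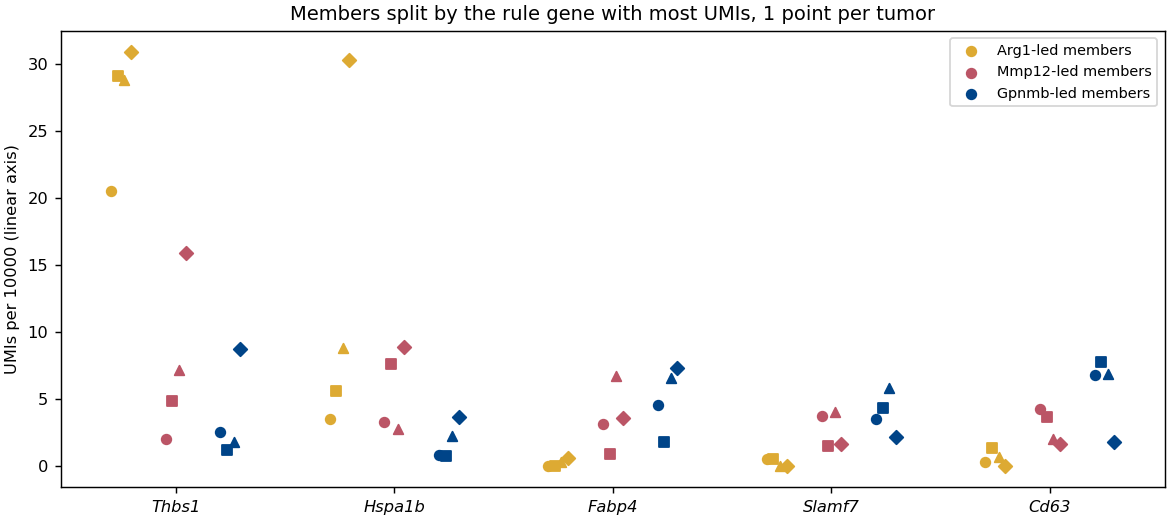
Levels of the 5 genes called between Arg1-led and Gpnmb-led members, with Mmp12-led members beside them, in UMIs per 10000 on a linear axis, 1 point per tumor (circle and square, *Csf1r* fl/fl tumors 1 and 2; triangle and diamond, Lyve1Cre *Csf1r* fl/fl tumors 1 and 2). *Thbs1* is at 20.5 or more in Arg1-led members and at 8.77 or less in Gpnmb-led members, and *Fabp4* and *Slamf7* are near 0 in Arg1-led members.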

How the data were processed

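Single-cell RNA and hashtag libraries of sorted CD45+ cells were made with Chromium 3' chemistry in 2 runs (4 deposited samples). Per the labels, the authors counted reads with Cell Ranger 6.0.1 on mm10 and deposited raw UMI counts per gene and hashtag, so whole molecules were tested. The deposited score values were made by the authors with SCTransform, as corrected counts of singlets under 5% mitochondrial counts without clusters of a single tumor. The cell names of this score table were used only to find the 28429 kept of 53361 barcodes. A deposited table of labels named the hashtag of each tumor, and the higher hashtag count of a cell set its tumor.

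The members, gene lists and tests were chosen with earlier results of these data known. UMIs were summed per tumor and population and tested with edgeR 4.0.16 (R 4.3.3; filterByExpr, TMM, quasi-likelihood, Benjamini-Hochberg over all tested genes, threshold 0.05). DESeq2 1.42.0 was an alternative. Doublets were called with Scrublet in scanpy 1.11.5 at an expected rate of 0.2 and kept in the main results. Named genes were the rule, marker and list genes and, per comparison, the 10 largest rises and falls that passed with 1 direction in every tumor, or the 5 lowest p where fewer than 5 passed. Values of list genes given in the text were picked after the fits were seen. The fits were tested on simulated data with 200 of the more highly counted genes changed by a log2 fold change of 2. The genotype fit called 154 of them (77%) and that of Arg1-led against Gpnmb-led members 160 (80%). Those against C1q macrophages and Ly6c2 monocytes called 199 and 200. In the same order, 4, 6, 12 and 4 unchanged genes were called. Smaller changes were not simulated. Per the labels, the tumors of a run shared a pool, which pairs them, and the deviations of the paired tumors in the members correlated at r = 0.0805 over 3222 genes (0.122 over 1298 genes above a log2 CPM of 7). Intervals cover counting error only. Alternatives were other normalization, tool, filter, rule threshold, doublet and hashtag handling, a block and leaving out each tumor.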

Additional observations from a re-analysis of the deposited data

How the results depend on the processing

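The lower share of the members with Cre kept its direction in every alternative run and had no test that could pass, but the log2 ratio was -0.02 out of mononuclear phagocytes, and it lay between -0.78 and -0.45 without 1 tumor. The run as a replicate block left the genotype count at 0 and the log2 ratio of the share at -0.61, so that pairing changed no call. The genotype count of 0 genes became 5 with library totals, 43 without a filter on low counts, 1 by DESeq2, 2 with at least 5 UMIs of the rule genes (*Atr* and *Cx3cr1*), 1 with at least 10 per 10000 (*Atr*), 3 (*Fn1*, *Adh5* and *Cx3cr1*) in members with macrophage UMIs and without stroma genes, and 0 to 71 without 1 tumor, which leaves 1 tumor in that genotype. The count for Arg1 Mmp12 Gpnmb macrophages against C1q macrophages, 1213, fell to 767 by DESeq2 and to 792 without the tumor as replicate block, and was 650 to 1160 without 1 tumor (lowest without *Csf1r* fl/fl tumor 1), while that for Arg1 Mmp12 Gpnmb macrophages against Ly6c2 monocytes, 1939, stayed within 1.5 times (1293 to 1739 without 1 tumor). The 5 calls between Arg1-led and Gpnmb-led members became 82 without a filter, 21 by DESeq2, 15 without Scrublet doublets, 0 with at least 5 UMIs, 29 with at least 10 per 10000, 7 in members with macrophage UMIs, 8 with *S100a8* and *S100a9* under 100, 0 with no replicate block and 0 to 8 without 1 tumor. For single genes, *Adh5* between genotypes was -0.04 to 5.34 without 1 tumor, negative without Lyve1Cre *Csf1r* fl/fl tumor 2 alone. Signs also turned in genes that did not pass. Against C1q macrophages, *Csf1r* was -0.05 with library totals, -0.06 without a filter and -0.03 to 0.15 without 1 tumor, and *Trem2* was 0.16 without Scrublet doublets, 0.01 with the lower *S100a8* limit and -0.50 to 0.15 without 1 tumor. Against Ly6c2 monocytes, *Il1b* was 0.16 with no replicate block, 0.04 and 0.18 with the stricter rules and -0.36 to 0.38 without 1 tumor, and Fn1 in Arg1 Mmp12 Gpnmb macrophages against Ly6c2 monocytes was 0.10 with no replicate block and -1.38 to 0.32 without 1 tumor. Library totals, the macrophage UMI filter and the lower *S100a8* limit were chosen after seeing the data. The cause of these shifts was not tested. The 85469 UMIs of the members in Lyve1Cre *Csf1r* fl/fl tumor 2 limit the precision of every level there.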
